A study of Mus musculus with 2 samples.

Results

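10 inflammatory mediator genes were followed through the cells of the mouse mitral valve: the chemokines Cxcl1, Cxcl2, Cxcl10, Cxcl12, Ccl2, Ccl7, Ccl8, Ccl3 and Ccl4, and the cytokine gene Il1b. They were a named set of 10 of the 32285 genes in the count files, and all 10 were found there. The data were 2 single-cell 3′ RNA libraries on the C57BL/6J background, both from mice of 1 month. The wild type library (Fbn1 +/+) came from a pool of 5 mice and the Fbn1 C1039G/+ library from a pool of 3. Fbn1 encodes fibrillin-1, a microfibril protein of the matrix, and C1039G is a missense allele used as a mouse model of Marfan syndrome. Anterior and posterior leaflets were dissected together and digested at 37 °C with collagenases, dispase, elastase and hyaluronidase, by a protocol both groups shared. Each genotype was 1 library of pooled animals, so genotype and the handling of its pool cannot be told apart. No difference between the genotypes has a replicate check, and no p-value is given. Intervals are 95% and cover counting error only. Where a pair of values is given, wild type comes first, and a ratio is Fbn1 C1039G/+ over wild type unless stated.

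Chemokines are small secreted proteins that bind G protein-coupled receptors and the matrix, and guide leukocytes along their gradients. Cxcl1 and Cxcl2 act on Cxcr2 and draw neutrophils. Cxcl10 acts on Cxcr3 of activated T cells and is induced by interferon, and Cxcl12 acts on Cxcr4 and is made steadily by stromal cells. Ccl2 and Ccl7 draw monocytes and related cells, and Ccl3 and Ccl4 draw monocytes and T cells. Il1b encodes the interleukin-1β precursor, which inflammasomes process. In valve leaflets the matrix is made by interstitial cells, endothelium covers the surface, and macrophages reside within.

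Barcodes with 1000 or more unique molecular identifiers (UMIs), of which no more than 20% were mitochondrial, were kept: 9395 of 9509 wild type and 9540 of 9744 Fbn1 C1039G/+ barcodes. Interstitial barcodes carried at least 1% of their UMIs in Dcn, Col1a1, Col1a2 and Col3a1, and numbered 7557 and 7768. Among the rest, at least 10 UMIs of C1qa, C1qb and C1qc marked 800 and 880 macrophage barcodes, and at least 5 UMIs of Pecam1, Cdh5 and Emcn marked 250 and 318 endothelial barcodes. Barcodes that met both of these cuts, 13 and 10, were kept apart. Of the remainder, 145 and 122 barcodes with MHC class II and little C1q are called myeloid here, and 133 and 65 had at least 2 UMIs of the Cd3 genes. The libraries held 100969482 and 103663375 UMIs, and median depth was 10086 and 10094.5 UMIs in interstitial, 8292.5 and 7387 in macrophage and 10882.5 and 10918.5 in endothelial barcodes. A list of 9 macrophage markers, the 3 C1q genes among them, summed to 27354 and 30138 UMIs per 1000000 UMIs of the class (CPM) in macrophage barcodes, against 575 and 484 in interstitial and 52.3 and 28.7 in endothelial ones, and none of the 9 was at 0 in the macrophage class. The libraries shared 17 barcode sequences. Fbn1, the targeted gene, stood at 413 and 447 CPM in interstitial barcodes, which checks no label, since a missense allele need not change the level.

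All 10 genes were placed on mm10 with GENCODE M21. Cxcl1 (chr5:90891241-90893115, plus strand) and Cxcl2 (chr5:90903871-90905938, plus strand) start 12630 bases apart, with Cxcl10 on the same chromosome (chr5:92346638-92348889, minus strand). Ccl2 (chr11:82035571-82037453), Ccl7 (chr11:82045712-82047525) and Ccl8 (chr11:82115185-82116799) lie in a row on the plus strand. Ccl3 (chr11:83647844-83649355, minus strand) and Ccl4 (chr11:83662584-83664683, plus strand) form another cluster on that chromosome. Cxcl12 (chr6:117168535-117181367, plus strand) and Il1b (chr2:129364570-129371139, minus strand) stand apart.

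Bases upstream of the start were available from RefSeq (GRCm38.p6) for 7 of the 10, not for Ccl2, Ccl7 and Ccl4. 4 are printed, picked with their values known: Cxcl1, Cxcl2 and Cxcl10, lower in the Fbn1 C1039G/+ library, and Cxcl12, which was not called. All but Cxcl2 had the interstitial class as main source. Each is written 5′ to 3′ on the strand of the gene, up to the first base transcribed in either annotation. Capitals mark matches, on either strand, to the NF-kappaB site (kappaB), to the interferon-stimulated response element GAAANNGAAA or to the AP-1 site TGANTCA.
Cxcl1, chr5:90890995-90891240, plus strand: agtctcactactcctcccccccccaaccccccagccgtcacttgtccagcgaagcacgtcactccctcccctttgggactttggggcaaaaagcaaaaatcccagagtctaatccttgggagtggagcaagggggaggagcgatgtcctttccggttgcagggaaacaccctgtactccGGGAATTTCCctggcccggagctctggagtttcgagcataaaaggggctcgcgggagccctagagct
Cxcl2, chr5:90903649-90903870, plus strand: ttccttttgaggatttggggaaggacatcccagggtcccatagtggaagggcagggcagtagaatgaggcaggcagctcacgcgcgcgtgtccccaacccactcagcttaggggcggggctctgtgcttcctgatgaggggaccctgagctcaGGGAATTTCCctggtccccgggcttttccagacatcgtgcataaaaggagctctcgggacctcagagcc
Cxcl10, chr5:92348890-92349139, minus strand: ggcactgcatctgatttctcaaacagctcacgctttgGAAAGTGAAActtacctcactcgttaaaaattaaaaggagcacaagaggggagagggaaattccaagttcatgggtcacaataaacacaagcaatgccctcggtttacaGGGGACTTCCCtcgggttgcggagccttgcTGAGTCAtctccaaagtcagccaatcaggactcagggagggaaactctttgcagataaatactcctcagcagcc
Cxcl12, chr6:117168285-117168534, plus strand: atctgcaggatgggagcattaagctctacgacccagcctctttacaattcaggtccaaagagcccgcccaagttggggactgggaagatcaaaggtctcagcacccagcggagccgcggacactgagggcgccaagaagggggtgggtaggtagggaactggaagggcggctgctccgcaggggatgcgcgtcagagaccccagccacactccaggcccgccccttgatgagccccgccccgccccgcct
A kappaB match with the same letters, GGGAATTTCC, lay 71 to 62 bases before the RefSeq start of Cxcl1 and 97 to 88 before that of Cxcl2, inside a run of 14 shared bases. Cxcl10 had an interferon element match at 213 to 204, overlapping kappaB matches between 104 and 94, and an AP-1 match at 74 to 68, which reads the same on both strands. No match was found in the 250 bases of Cxcl12, Ccl8, Ccl3 and Il1b. Ccl8, Ccl3 and Il1b, not printed, were also lower in Fbn1 C1039G/+ macrophages, with ratios of 0.617, 0.441 and 0.331. Over 32841 RefSeq windows of 250 bases, 5.00% held a kappaB match, 2.98% an interferon element match and 6.75% an AP-1 match. A match describes letters only.

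The main source class, the one with the largest share of a gene's UMIs over kept barcodes, was the interstitial class for 3 members and the macrophage class for 7, in both libraries. Interstitial barcodes held 68.7% of Cxcl1 UMIs in wild type and 74.4% in Fbn1 C1039G/+, 75.7% and 64.4% of Cxcl10, and 98.3% and 98.1% of Cxcl12. Macrophage barcodes held 82.8% and 82.0% of Cxcl2, 59.1% and 41.8% of Ccl2, 70.8% and 50.8% of Ccl7, 86.8% and 68.7% of Ccl8, 78.8% and 83.3% of Ccl3, 75.2% and 81.6% of Ccl4, and 52.7% and 54.6% of Il1b. Source and level are different quantities here, since the interstitial class held 82.0% and 83.5% of all kept UMIs. Of the interstitial, macrophage and endothelial classes, the highest CPM was in macrophages for 9 of the 10, and in interstitial barcodes for Cxcl12 alone. Cxcl1 stood 4.20 times (3.96 to 4.44) and 3.35 times (2.92 to 3.84) higher in CPM in macrophage than in interstitial barcodes, although the interstitial class was its main source.

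**Figure D1:**
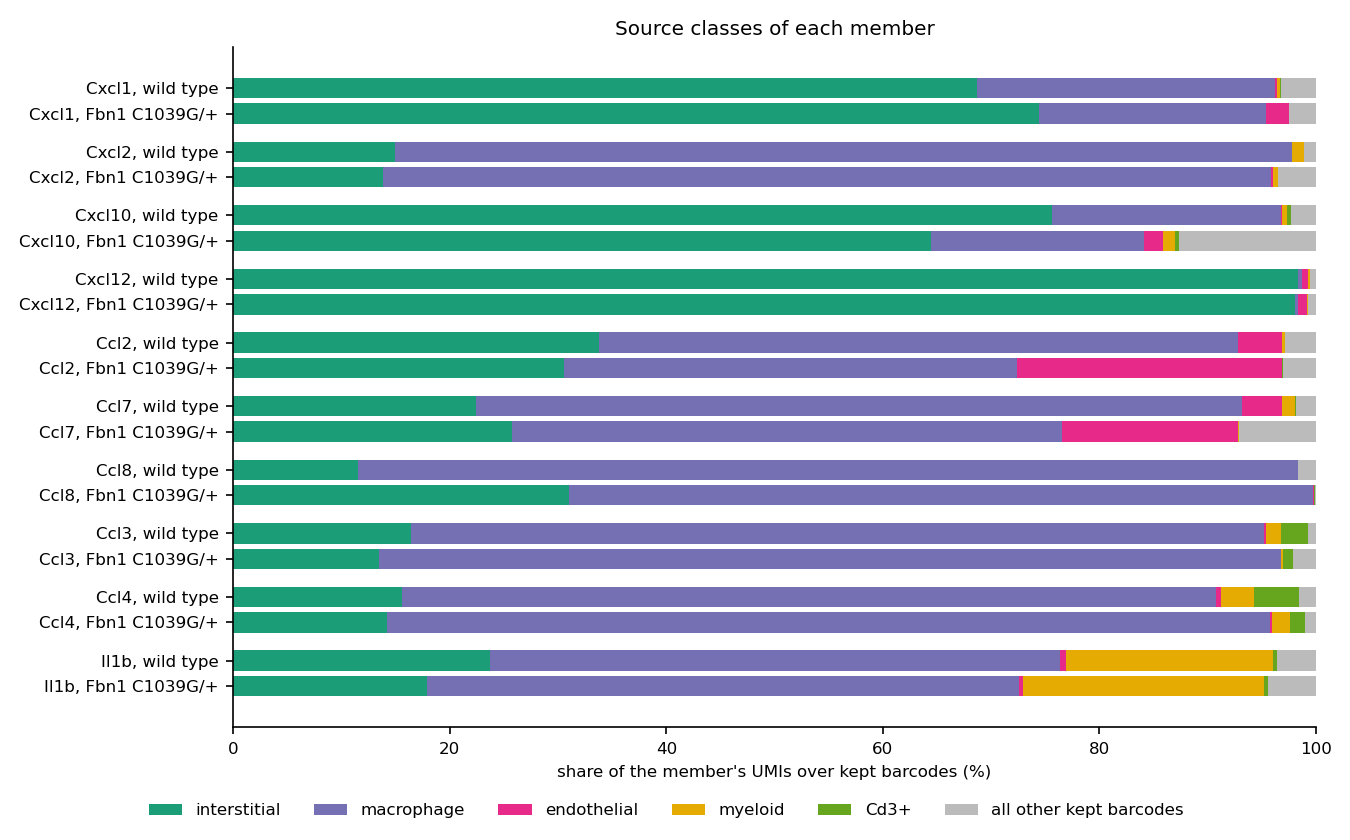
Share of each member's UMIs (%, horizontal axis) that lay in each barcode class, 1 bar per member and library. Interstitial barcodes fill almost the whole bar of Cxcl12 (98.3% and 98.1%), macrophage barcodes lead for Cxcl2, the Ccl genes and Il1b, and the endothelial share of Ccl2 differs between the libraries (4.04% and 24.5%).

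**Figure D2:**
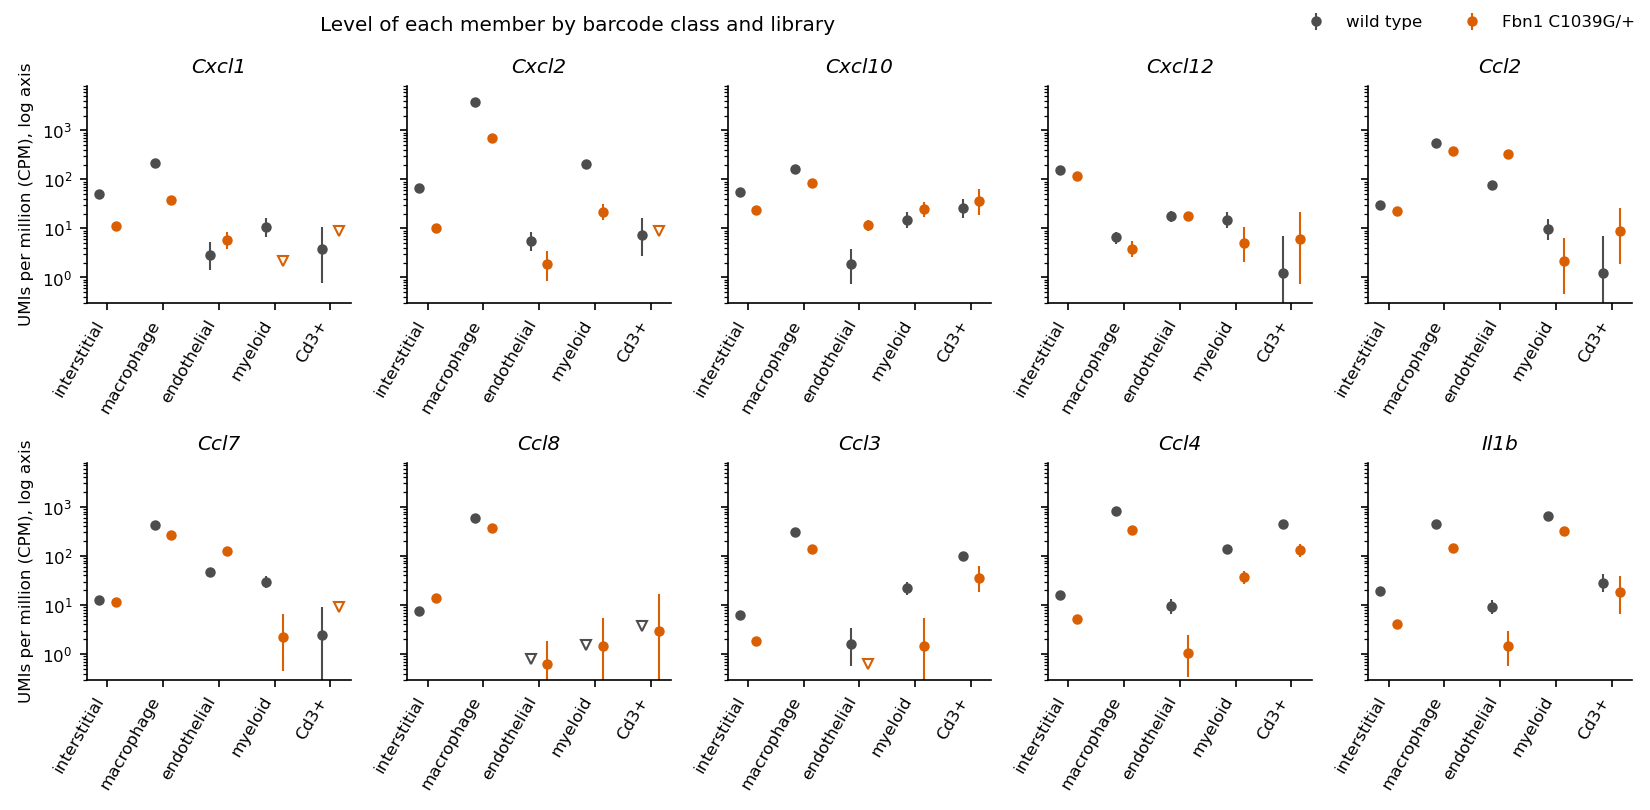
Level of each member in CPM (log axis) in 5 barcode classes, wild type in grey and Fbn1 C1039G/+ in orange. Points are 1 library each, bars are exact Poisson 95% intervals, and open triangles mark the floor of 3 counts where no UMI was found; Cxcl2 in wild type macrophages is the highest point at 3855 CPM.

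Cxcl1 and Cxcl2, the neutrophil attractants, were lower in Fbn1 C1039G/+ macrophage barcodes, and Cxcl1 was lower in interstitial barcodes as well. In interstitial barcodes Cxcl1 stood at 51.4 CPM (49.9 to 53.0) in wild type and 11.2 CPM (10.5 to 11.9) in Fbn1 C1039G/+, a ratio of 0.217 (0.203 to 0.233). In macrophage barcodes it stood at 216 and 37.5 CPM (ratio 0.174, 0.152 to 0.198). Fewer barcodes carried it: 14.0% and 4.35% of interstitial barcodes had a Cxcl1 UMI, and 7.18% and 1.86% did once each barcode was thinned to 3000 UMIs. The share among endothelial barcodes, where the level was low, was 4.0% and 2.52%, and 1.63% and 0.645% after thinning. 40 wild type and 292 Fbn1 C1039G/+ interstitial barcodes under 3000 UMIs were left out of the thinned shares, and 29 and 58 macrophage barcodes.

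Cxcl2 had the highest level of any member in these 3 classes, at 3855 CPM (3812 to 3899) in wild type macrophages and 710 CPM (691 to 730) in Fbn1 C1039G/+ macrophages, a ratio of 0.184 (0.179 to 0.190). It was detected in 80.8% and 41.7% of macrophage barcodes, and in 78.0% and 35.3% after thinning. The 5 leading barcodes held 3.66% and 10.4% of its macrophage UMIs. In interstitial barcodes the level was 66.2 and 10.1 CPM, but this rested on barcodes that also carried C1q. Of the interstitial barcodes, 170 (2.25%) and 207 (2.66%) had at least 10 C1q UMIs, and these held 88.1% and 87.1% of the interstitial Cxcl2. With barcodes that carried markers of another class left out, 7133 and 7227 interstitial barcodes had 6.49 and 1.02 CPM, under the level of 20 CPM used to call a gene measured. Cxcl2 was then found in 5.31% and 0.816% of them, against 6.80% and 0.943% of endothelial barcodes. Free RNA was not measured, so background and low expression cannot be told apart here.

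Cxcl10, the interferon-induced ligand of Cxcr3, stood at 56.1 CPM (54.5 to 57.7) in wild type and 23.7 CPM (22.7 to 24.8) in Fbn1 C1039G/+ interstitial barcodes, a ratio of 0.423 (0.401 to 0.446). In macrophage barcodes it stood at 164 and 86.1 CPM (ratio 0.524, 0.476 to 0.577). Its UMIs lay in few barcodes. The 5 barcodes with most Cxcl10 held 32.1% and 26.4% of the interstitial UMIs, and 1 wild type barcode alone carried 628. A Cxcl10 UMI was found in 7.37% and 3.94% of interstitial barcodes, against 2.80% and 2.20% of endothelial barcodes at a like depth, and after thinning the interstitial shares were 3.70% and 2.10%. On thinned UMIs the interstitial log2 ratio was -0.63 (-0.79 to -0.48), against -1.24 on all UMIs. In Fbn1 C1039G/+ endothelial barcodes Cxcl10 had 57 UMIs, of which 44 were in 1 barcode.

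Cxcl12, the stromal ligand of Cxcr4, was spread over many interstitial barcodes. It stood at 154 CPM (151 to 157) in wild type and 118 CPM (116 to 120) in Fbn1 C1039G/+, a ratio of 0.765 (0.746 to 0.786), which does not reach the 1.5-fold rule. A UMI was found in 57.7% and 50.4% of interstitial barcodes, and in 30.4% and 25.8% after thinning. The level in interstitial barcodes was 23.4 times (17.8 to 31.3) and 30.6 times (21.1 to 46.0) that in macrophage barcodes, where 3.13% and 2.16% had a UMI. Endothelial barcodes had 17.7 and 17.9 CPM. The 5 barcodes with most Cxcl12 held only 1.16% and 1.53% of its interstitial UMIs.

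Ccl2, Ccl7 and Ccl8 had macrophages as their main source class in both libraries, although for Ccl2 in Fbn1 C1039G/+ that share was 41.8%. Ccl2 stood there at 545 CPM (529 to 561) in wild type and 372 CPM (358 to 386) in Fbn1 C1039G/+, a ratio of 0.682 (0.650 to 0.716) that falls short of the rule. Ccl7 stood at 426 (412 to 441) and 268 CPM (257 to 280), a ratio of 0.629 (0.595 to 0.666). Ccl8 stood at 603 (586 to 620) and 372 CPM (358 to 386), a ratio of 0.617 (0.588 to 0.647), but among female barcodes the direction turned, with a ratio of 1.20 (1.09 to 1.32). Ccl2 was detected in 52.4% and 43.3% of macrophage barcodes, Ccl7 in 32.1% and 26.8%, and Ccl8 in 24.6% and 21.5%. In Cd3+ barcodes, shallower at a median of 4531 and 4235 UMIs, the shares were 0.752% and 1.54% for Ccl2, 1.5% and 0% for Ccl7 and 0% and 1.54% for Ccl8. Ccl8 was the most concentrated of these: its 5 leading barcodes held 23.1% and 25.8% of its macrophage UMIs, with up to 387 and 204 UMIs in 1 barcode. Raising the interstitial cut to 2% of UMIs, which moves barcodes between classes, ended the calls of Ccl7 (log2 ratio -0.51) and Ccl8 (log2 ratio -0.43).

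In interstitial barcodes Ccl2 stood at 29.7 and 22.8 CPM (ratio 0.768, 0.723 to 0.815), and Ccl7 at 12.9 and 11.4 CPM. The direction of that Ccl2 ratio did not hold among female barcodes, at 1.18 (1.07 to 1.30) against 0.303 (0.266 to 0.344) among male ones, or without the highest doublet scores, at a log2 ratio of 0.07 (-0.04 to 0.18). The barcodes with at least 10 C1q UMIs held 36.7% and 40.4% of the interstitial Ccl2, 53.9% and 61.6% of the Ccl7 and 86.1% and 91.4% of the Ccl8. The interstitial level of Ccl8 was 7.65 and 14.1 CPM, too low in both libraries for a call. Without barcodes of mixed markers, it had 1.07 CPM (0.850 to 1.33) and 0.727 CPM (0.550 to 0.942). No UMI of Ccl8 was found in the 250 wild type endothelial barcodes, where 3 counts would make 0.793 CPM, and 3 UMIs were found in the 318 of Fbn1 C1039G/+.

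Ccl3 and Ccl4, which draw monocytes and T cells, were macrophage genes in both libraries, with a further source in Cd3+ barcodes. Ccl3 stood at 312 CPM (300 to 324) in wild type and 138 CPM (129 to 146) in Fbn1 C1039G/+ macrophages, a ratio of 0.441 (0.410 to 0.475). Ccl4 stood at 818 (798 to 838) and 345 CPM (331 to 358), a ratio of 0.421 (0.402 to 0.441). Ccl3 was detected in 58.0% and 31.0% of macrophage barcodes and Ccl4 in 57.1% and 40.5%, against 2.40% and 0% of endothelial barcodes for Ccl3 and 5.20% and 0.629% for Ccl4. In Cd3+ barcodes Ccl4 reached 444 CPM (399 to 493) and 132 CPM (96.0 to 177), and Ccl3 98.3 and 36.0 CPM. These are 357 and 44 UMIs of Ccl4, in 45 and 12 barcodes. The interstitial barcodes with at least 10 C1q UMIs held 85.9% and 80.2% of the interstitial Ccl3 and 79.9% and 66.6% of the Ccl4.

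Il1b had more than 1 myeloid source. Macrophage barcodes stood at 439 CPM (424 to 453) in wild type and 145 CPM (137 to 154) in Fbn1 C1039G/+, a ratio of 0.331 (0.309 to 0.355). The small myeloid class stood higher, at 649 CPM (614 to 686) and 316 CPM (287 to 347), and supplied 19.2% and 22.3% of Il1b UMIs. In this class 5 dendritic cell markers summed to 683 and 703 CPM, and 4 monocyte markers to 417 and 202 CPM. Whether its make-up differed between the libraries was not tested. The 2 wild type barcodes with at least 20 UMIs of S100a8 and S100a9, which mark neutrophils, held 58 Il1b UMIs, and the other library had no such barcode. Detection among macrophage barcodes was 50.1% and 26.7%, and 38.8% and 19.7% after thinning, against 2.00% and 1.26% of endothelial barcodes as deposited. In interstitial barcodes Il1b stood at 18.8 and 4.0 CPM, with 70.5% and 43.1% of those UMIs in barcodes with at least 10 C1q UMIs.

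A gene counted as measured in a class with 20 CPM or more in 1 of the libraries and a total of 50 UMIs or more, and as lower or higher where its CPM differed 1.5-fold or more. In macrophages 8 of the 9 measured members were lower in Fbn1 C1039G/+ and 0 higher, beside 3.62% lower and 1.43% higher of 6080 measured genes. The member not called was Ccl2, and Cxcl12 was not measured. The 9 interstitial markers summed to 1551 and 902 CPM in macrophage barcodes, and without barcodes of mixed markers 9 of 9 measured members were lower. The count of 8 fell to 5 of 9 among female barcodes, and to 5 of 9 at a 2-fold threshold. In interstitial barcodes 3 of 5 measured members were lower (Cxcl1, Cxcl2 and Cxcl10) and 0 higher, beside 1.42% lower and 0.945% higher of 6563 genes. That count was 5 of 7 with an interstitial cut of 0.5% and 5 of 6 among male barcodes. The median log2 ratio of the measured members was -1.18 in macrophages and -1.24 in interstitial barcodes, where that of all measured genes was 0.02 and 0.04. Without interstitial barcodes of mixed markers 2 of 3 measured members were lower there, since Cxcl2 and Ccl2 were no longer measured. Over all kept barcodes 6 of 10 were lower and 0 higher, beside 1.48% lower and 1.02% higher of 6743 genes. In the myeloid class 4 of 5 measured members (Cxcl2, Ccl7, Ccl4 and Il1b) were lower and 1 higher, Cxcl10 with 32 of its 34 Fbn1 C1039G/+ UMIs in 1 barcode, beside 13.8% lower and 3.78% higher of 5769 genes. Of the 57 wild type Ccl7 UMIs in that class, 55 were in 1 barcode. In Cd3+ barcodes Ccl3 and Ccl4, 2 of 2 measured, were lower, beside 13.8% lower and 6.37% higher of 3235 genes. In sums over all barcodes, fewer cells of a kind and less RNA per cell cannot be told apart.

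**Figure D3:**
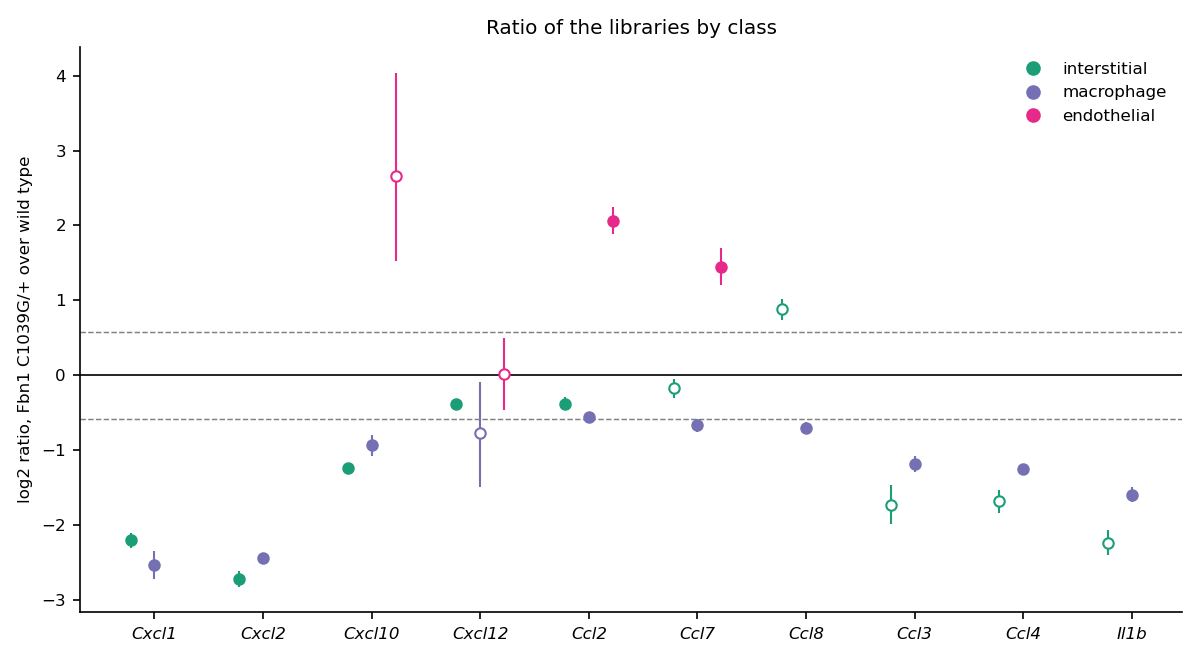
Log2 ratio of CPM, Fbn1 C1039G/+ over wild type (vertical axis), for members with at least 50 UMIs over both libraries in a class. Bars are exact 95% intervals for counting error, filled points are measured genes, open points are below the level for a call, and dashed lines mark 1.5-fold; macrophage points lie below 0 and the endothelial points of Ccl2 and Ccl7 above it, at 2.06 and 1.45.

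Endothelial barcodes went the other way for Ccl2 and Ccl7. Ccl2 stood at 77.7 CPM (69.1 to 87.1) in wild type and 324 CPM (308 to 340) in Fbn1 C1039G/+, a ratio of 4.17 (3.68 to 4.74). Ccl7 stood at 47.0 (40.4 to 54.5) and 128 CPM (118 to 139), a ratio of 2.72 (2.30 to 3.23). Both of the 2 measured members were thus higher, beside 3.22% higher and 3.23% lower of 7240 genes. The endothelial share of all Ccl2 UMIs was 4.04% and 24.5%, and that of Ccl7 3.74% and 16.3%. The macrophage marker list summed in these barcodes to 52.3 and 28.7 CPM, over the whole class and not only the barcodes with Ccl2. Without barcodes that had 3 or more C1q UMIs or any UMI of the leukocyte marker Ptprc, the log2 ratio was 2.02 for Ccl2. For Ccl7 it was 1.41, against 2.06 and 1.45 for the 2 genes in the whole class. The 9 interstitial markers summed to 5060 and 6809 CPM, and no endothelial barcode was left out for carrying them.

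The endothelial values rested on few barcodes. A Ccl2 UMI was found in 12.0% (8.24 to 16.7) and 23.3% (18.7 to 28.3) of endothelial barcodes, and in 6.50% and 13.2% after thinning, while Ccl7 was found in 3.66% and 9.68% after thinning. The 5 barcodes with most Ccl2 held 76.5% and 50.8% of it, with up to 97 and 251 UMIs in 1 barcode. Without the 5 leading barcodes of each gene the log2 ratio was 3.11 for Ccl2 and 2.09 for Ccl7, and on thinned UMIs it was 0.73 (0.39 to 1.09) and 0.92 (0.35 to 1.51). Some barcodes carried both genes: 24 of the 41 thinned Fbn1 C1039G/+ barcodes with Ccl2 also had Ccl7, where the product of the separate shares would give 3.97. Across all endothelial barcodes Ccl7 was also the gene most like Ccl2 (r = 0.75 in 250 and 0.86 in 318 barcodes, of 10616 genes ranked), ahead of Rgs16 and Bmp2, with r of 0.25 and 0.26 in wild type. In the same class Atf3 stood at 74.0 and 196 CPM and Ptgs2 at 14.5 and 57.5 CPM, the 2 companion genes counted as higher.

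Genes around the members were counted from lists. Of 21 genes of the interleukin-1 system and NF-kappaB response, 16 were measured in macrophages, where 10 were lower and 0 higher, with a median log2 ratio of -1.13. Those lower included Tnf (173 and 43.9 CPM) and Nlrp3, an inflammasome sensor (94.2 and 31.1 CPM). Nfkbia, the inhibitor of NF-kappaB (963 and 264 CPM), and Ptgs2, the inducible prostaglandin synthase (27.9 and 2.62 CPM), were also among them. In interstitial barcodes 4 of 11 were lower (Nfkbia, Nfkbiz, Zfp36 and Icam1) and 0 higher, with a median of -0.32. In endothelial barcodes 0 of 10 were lower and 1 higher. Among 17 other chemokines, 1 of 8 measured in macrophages was lower, Cxcl9 at 173 and 50.0 CPM, and 0 were higher, with a median of 0.13. Pf4 (1884 and 2161 CPM) and Ccl12 (735 and 676 CPM) were among those not called. In interstitial barcodes 2 of 5 other chemokines were lower, Cxcl9 at 41.2 and 3.69 CPM and Ccl5 at 42.9 and 24.9 CPM, and 0 were higher.

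Of 14 receptors and decoy receptors, 4 were measured in macrophages. Ccr2, the receptor of Ccl2 and Ccl7, was higher there at 68.1 and 104 CPM, and Cxcr4, the receptor of Cxcl12, was lower at 78.2 and 50.7 CPM. The Cxcl12 scavenger Ackr3 stood at 549 and 612 CPM in endothelial barcodes and at 46.0 and 46.4 CPM in interstitial ones. Il1r1, the signalling receptor of interleukin-1, stood at 71.2 and 72.5 CPM in interstitial barcodes. 0 of 3 measured receptors in interstitial and 0 of 1 in endothelial barcodes was called in either direction.

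Most immediate early genes were also lower in Fbn1 C1039G/+ macrophage and interstitial barcodes, but not in endothelial ones. Of 8 such genes (Fos, Fosb, Jun, Junb, Egr1, Atf3, Ier2 and Nr4a1), all 8 were lower in Fbn1 C1039G/+ macrophages, with a median log2 ratio of -1.59, and 6 of 8 in interstitial barcodes, with a median of -1.04. In endothelial barcodes 1 was lower and 1 higher. Barcodes of both libraries were therefore divided into 3 equal parts by the share of their UMIs in these 8 genes. The cuts were 0.30% and 0.857% in macrophages, and the lowest, middle and highest parts held 82, 201 and 517 wild type and 478, 359 and 43 Fbn1 C1039G/+ barcodes. The parts are ranges of a score, not cell types, and 101 and 133 macrophage barcodes lay within 10% of a cut. The part that immediate early activity has in the differences was not tested.

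Within these parts the macrophage members separated. Cxcl2 was 29.7 times higher in the highest than in the lowest part in wild type and 7.47 times in Fbn1 C1039G/+, Ccl4 17.6 and 5.86 times, Ccl3 15.9 and 6.27 times and Il1b 8.56 and 4.91 times. In the highest part the libraries stood at 972 and 981 CPM for Ccl4 (ratio 1.01, 0.897 to 1.13), at 515 and 498 CPM for Il1b (0.967, 0.819 to 1.13) and at 352 and 430 CPM for Ccl3 (1.22, 1.02 to 1.45). Cxcl2 there stood at 4697 and 2125 CPM (ratio 0.453, 0.419 to 0.488). In the lowest part these genes were higher in Fbn1 C1039G/+, with ratios of 1.80 for Cxcl2, 3.02 for Ccl4, 3.09 for Ccl3 and 1.69 for Il1b, from 100, 35, 14 and 38 wild type UMIs. Even within parts the score differed, with medians of 1.27% and 1.02% in the highest and 0.0775% and 0.163% in the lowest. In the middle part Cxcl2, Ccl3 and Il1b were lower in Fbn1 C1039G/+, with ratios of 0.347, 0.644 and 0.420, and Ccl4 at 0.707 was short of the rule.

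Ccl2, Ccl7 and Ccl8 did not follow that order. Ccl2 was 1.19 and 1.00 times as high in the highest as in the lowest macrophage part, Ccl7 1.46 and 0.396 times, and Ccl8 0.677 and 0.126 times. Ccl8 was lower in Fbn1 C1039G/+ in all 3 parts, at 866 and 467 CPM in the lowest, 569 and 276 CPM in the middle and 586 and 58.8 CPM in the highest, the last from 19 UMIs. In interstitial barcodes the cuts were 0.194% and 0.417%, with 1479, 2017 and 4061 wild type and 3629, 3091 and 1048 Fbn1 C1039G/+ barcodes, of which 1077 and 1364 lay within 10% of a cut. Cxcl1 was 16.3 times higher in the highest than in the lowest part in wild type and 7.57 times in Fbn1 C1039G/+, and its ratio between the libraries was 0.709 (0.529 to 0.957), 0.559 and 0.330 from the lowest to the highest part. Cxcl10 had ratios of 0.215, 0.528 and 0.398 in these parts, and Cxcl12 had 0.747, 0.726 and 0.777.

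**Figure D4:**
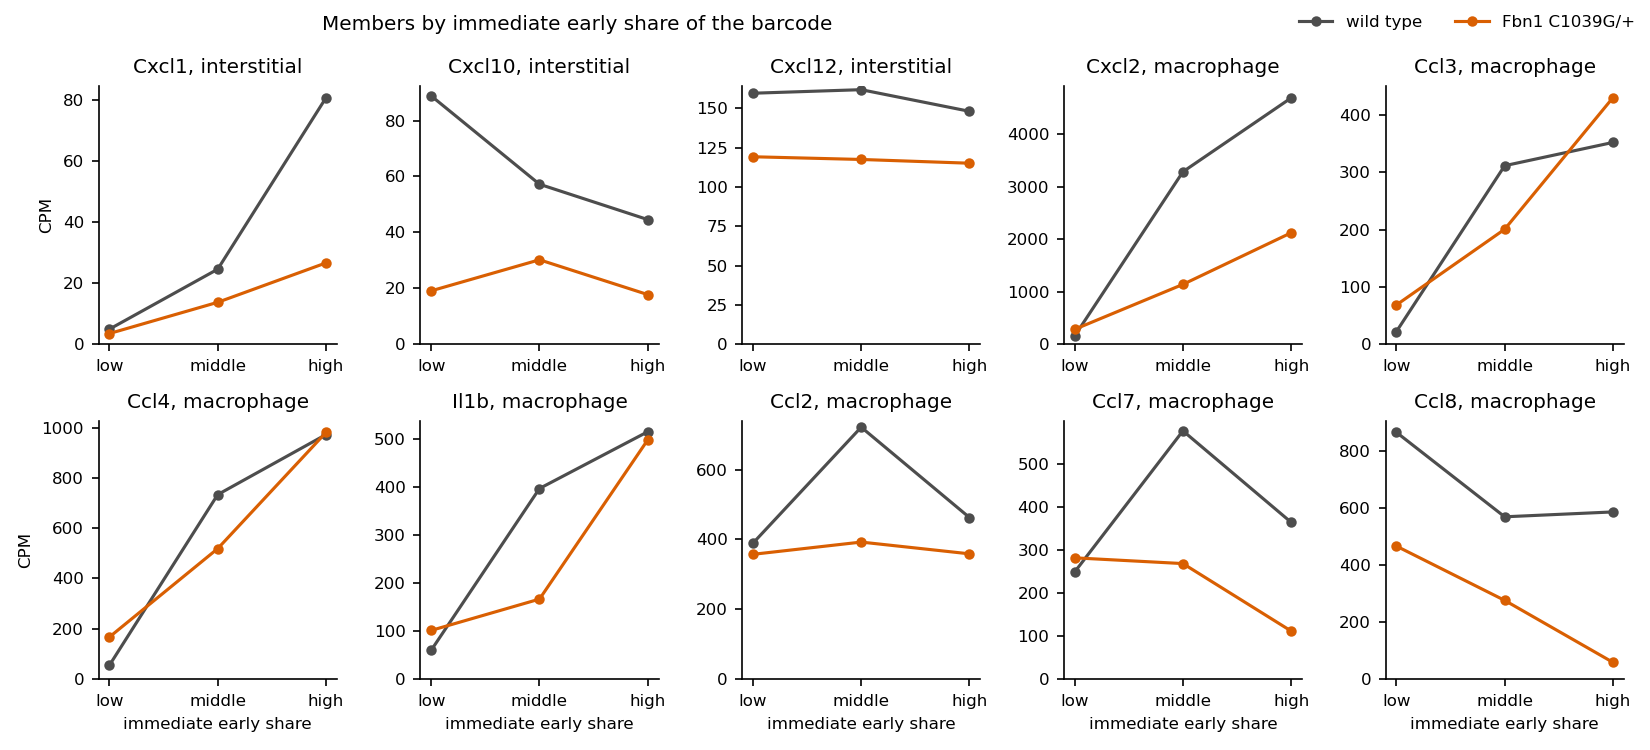
CPM (linear axis from 0) of 10 member and class pairs in the low, middle and high part of barcodes by immediate early share, 1 point per part and library. The libraries meet in the high part for Ccl4 and Il1b in macrophages (ratios 1.01 and 0.967) and stay apart in all parts for Cxcl12 and Cxcl10 in interstitial barcodes.

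MHC class II divided the macrophage members in another way. At the median share of H2-Aa, H2-Ab1, H2-Eb1 and Cd74, 2.02% of UMIs, 367 wild type and 473 Fbn1 C1039G/+ macrophage barcodes were below and 433 and 407 above, with 26 and 24 within 10% of the cut. Il1b was 3.58 and 4.69 times higher in the high part. Ccl7 was 3.30 and 2.88 times higher in the low part, Ccl2 2.20 and 1.54 times and Ccl8 1.82 and 10.3 times. Ccl8 stood at 786 and 588 CPM in the low part, a ratio of 0.748 (0.709 to 0.789), and at 432 and 56.9 CPM in the high part, a ratio of 0.132 (0.112 to 0.154). For Il1b the ratio was 0.309 in the low and 0.404 in the high part, and for Cxcl2 0.165 and 0.211.

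**Figure D5:**
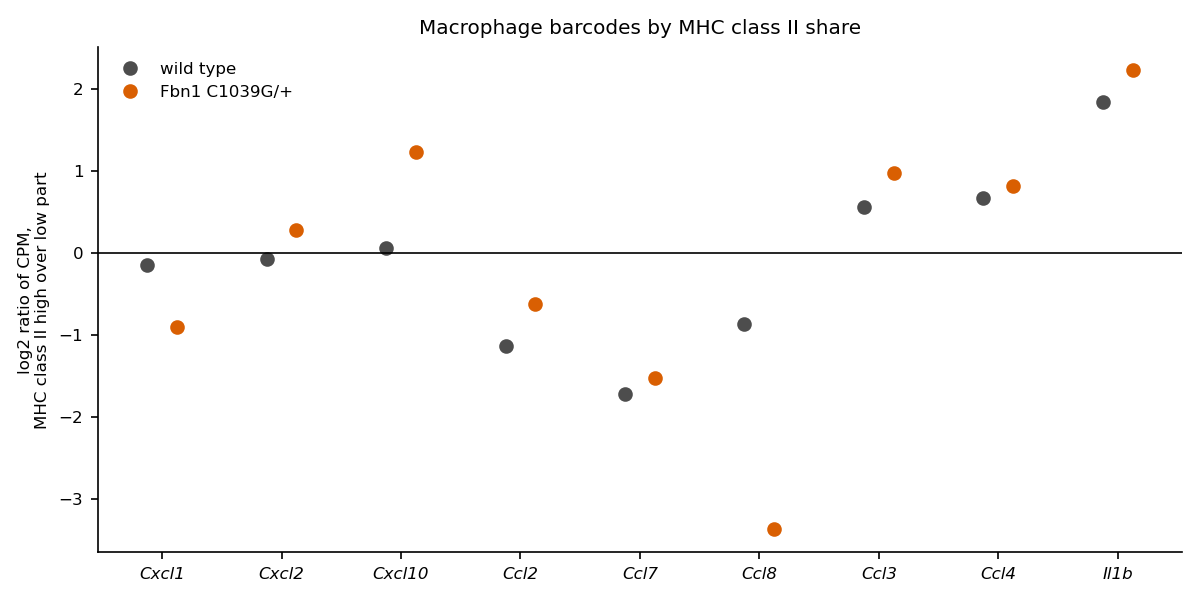
Log2 ratio of CPM between macrophage barcodes above and below the median MHC class II share (vertical axis), 1 point per member and library. Il1b lies highest in both libraries (3.58 and 4.69 times), and Ccl2, Ccl7 and Ccl8 lie below 0 in both.

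Some members were found together in single barcodes. In thinned macrophage barcodes Ccl2 and Ccl7 were found together in 143 wild type and 101 Fbn1 C1039G/+ barcodes, 2.15 and 2.03 times the product of their shares, and Ccl7 and Ccl8 in 70 and 50, 2.07 and 1.96 times. Ccl3 and Ccl4 met in 211 and 92, 1.45 and 1.94 times. Ccl8 and Il1b met in 31 and 13, 0.551 and 0.50 times. Of the 7 macrophage members, a thinned barcode held a median of 3 in wild type and 1 in Fbn1 C1039G/+. Barcodes with none of the 7 made up 6.23% and 20%, and those with at least 4 made up 32.2% and 10.3%.

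The genes whose pattern was most like each member, by Pearson correlation of log values over barcodes of its main source class, were ranked among 8742 genes in macrophages and 10100 in interstitial barcodes. Barcodes of a library share depth and digestion, so these values are descriptions. Cxcl2 was most like Atf3 (r = 0.47 in wild type and 0.48 in Fbn1 C1039G/+), a stress-induced factor of the immediate early list, followed by Nfkbiz and Dusp1. Ccl2 and Ccl7 were most like each other (0.69 and 0.58), followed for both by Ccl12. Ccl8 was most like Folr2 (0.55 and 0.54), Cbr2 and F13a1, genes of tissue-resident macrophages. Ccl3 and Ccl4 were most like each other (0.57 and 0.53). Il1b was most like H2-Eb1 (0.38 and 0.36), H2-Ab1 and H2-Aa. In interstitial barcodes Cxcl10 was most like the interferon-induced Isg15 (0.26 and 0.24), Gbp5 and Ifit1, and Cxcl12 was most like the complement gene C4b (0.38 and 0.29), Sfrp1 and Il11ra1. Cxcl1 was most like Notch3 (0.25 and 0.23), with Rasl11a and Spon1 next.

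The pools held barcodes of both sexes, told by Xist or by Y-linked transcripts alone. In a pool of 3 mice at least 1 sex is a single animal, so sex and animal cannot be told apart in the Fbn1 C1039G/+ library. Cxcl1 in both large classes and Cxcl2 in macrophages were lower in Fbn1 C1039G/+ in both sexes. The ratios were 0.345 in female and 0.123 in male barcodes for interstitial Cxcl1, and 0.217 and 0.136 for macrophage Cxcl2. Il1b in macrophages had ratios of 0.255 and 0.315, Ccl4 0.399 and 0.459, and Ccl3 0.451 and 0.427. Interstitial Cxcl12, at 0.653 and 0.887, passed the 1.5-fold rule among female barcodes. Interstitial Cxcl10 stood at 17.9 and 13.9 CPM in female and 95.5 and 21.1 CPM in male barcodes, ratios of 0.775 (0.690 to 0.870) and 0.221 (0.204 to 0.240), so its call ends among female barcodes. Macrophage Ccl8 had a ratio of 1.20 (1.09 to 1.32) in female and 0.581 (0.543 to 0.621) in male barcodes. Endothelial Ccl2 was higher in Fbn1 C1039G/+ in both, 5.26 (4.33 to 6.44) and 11.8 (7.81 to 18.5), while Ccl7 was 3.19 (2.50 to 4.11) in female and 1.19 (0.825 to 1.73) in male barcodes. These Ccl2 ratios rest on 116 UMIs in 131 female and 25 UMIs in 94 male wild type barcodes. All 250 wild type endothelial barcodes held 294 Ccl2 UMIs, so many of these lay in barcodes given no sex.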

How the data were processed

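The deposited values were raw UMI counts per gene and barcode of 2 libraries, which the authors made in Cell Ranger against mm10, per the labels and the file headers, from 10x 3′ libraries. The submitters' processing notes name version 3.1.0 and the file header 5.0.1, and how reads shared by similar genes were counted is not given in the sources used here. Barcodes without cells were not analysed here, and free RNA was not measured.

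The members and gene lists were chosen with earlier results of these data known. UMIs were summed per class and library and divided by the class total (CPM), with exact Poisson, Clopper-Pearson and conditional binomial 95% intervals. Genes were measured at 20 CPM in either library and 50 UMIs over both. Genotypes had 1 library each, so a size of 1.5-fold, and no test, made a call. Libraries held 100969482 and 103663375 UMIs. Thinning drew 3000 UMIs per barcode once. No doublets were removed; leaving out the highest Scrublet scores (scanpy 1.11.5) was an alternative, because the automatic threshold called 0.0106% and 0.0943% of barcodes. The other classes were split in the order Cd3, S100a8 and S100a9, melanocyte, mural and MHC class II. Text names all 10 members, their 3 most alike genes and up to 4 genes of each list, and others named were chosen after their values were seen. The values of 1 receptor are not reported here. The macrophage parts by immediate early share, the endothelial alternatives and the endothelial likeness were also added after the data had been seen. The steps were checked on simulated data. Python 3.11.15, numpy 2.4.6, scipy 1.17.1 and pandas 2.3.3 were used.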

Additional observations from a re-analysis of the deposited data

Results flagged for a closer look

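For 4 members with at least 50 UMIs over both libraries in each class compared, the ratio of the libraries lay below 1 in 1 class and above 1 in another with neither 95% interval including 1. The differences were not tested, and endothelial Cxcl10, interstitial Ccl7 and interstitial Ccl8 were below the level for a call. For Cxcl10 the log2 ratio was 3.90 higher in endothelial than in interstitial barcodes and 3.59 higher than in macrophages, with 44 of the 57 Fbn1 C1039G/+ endothelial UMIs in 1 barcode. For Ccl2 it was 2.44 and 2.61 higher in endothelial barcodes, and for Ccl7 1.62 and 2.11 higher. For Ccl8 it was lower in macrophage than in interstitial barcodes, a difference of -1.58, with 91.4% of the Fbn1 C1039G/+ interstitial UMIs in barcodes with at least 10 C1q UMIs.

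By the same limits female and male barcodes pointed in opposite directions for 2 members, also untested. For interstitial Ccl2 the male log2 ratio less the female one was -1.96, from ratios of 1.18 in female and 0.303 in male barcodes. For macrophage Ccl8 it was -1.04.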

How the results depend on the processing

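No paired analysis was possible because each genotype has 1 library and the only replicate number they share is 1. Of 192 alternative values of single members, 189 kept the direction. The exceptions were Ccl8 in macrophages, at a log2 ratio of 0.26 among female barcodes, and Ccl2 in interstitial barcodes, at 0.24 among female barcodes and 0.07 without the highest doublet scores, and the cause was not tested. The interstitial count of 3 lower members became 5 with an interstitial cut of 0.5%, 5 among male barcodes and 6 with no level filter, which also gave 1 higher member, Ccl8. The macrophage count of 8 became 5 among female barcodes and 5 at a 2-fold threshold. The endothelial count of 2 higher members became 4 with no level filter, adding Cxcl1 (11 and 28 UMIs) and Cxcl10 (7 and 57 UMIs). Lower members were not counted in that class, and the share over all genes was not taken without the filter. Cxcl2, Ccl4 and Il1b, also under the level for a call, had endothelial ratios of 0.333, 0.108 and 0.155. The other 71 alternative counts stayed within 1.5 times, and the count of 3 interstitial source genes was 3 under every alternative run. Depth limits Ccl3 and Ccl8 in endothelial barcodes, where 3 counts make 0.793 and 0.616 CPM. Il1b had 35 and 7 UMIs there, above that floor but under the level for a call.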

Other observations

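Small classes held members at levels that rest on single barcodes. In the 53 wild type mural barcodes Cxcl1 stood at 168 CPM, with 51 of its 116 UMIs in 1 barcode, and in the 32 of Fbn1 C1039G/+ at 18.0 CPM. In barcodes assigned to no class, 1 Fbn1 C1039G/+ barcode held 128 of 235 Cxcl10 UMIs, and 1 held 114 of 202 Ccl7 UMIs.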
